A study of Homo sapiens with 4 samples.

Results

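The small leucine-rich proteoglycans are secreted proteins with a core of leucine-rich repeats, to which most members carry chondroitin, dermatan or keratan sulfate chains. They bind collagen fibrils and set their diameter and spacing, and several bind TGF-beta or cell surface receptors. In the nervous system they are known mainly from meninges, vessel walls and scars, and they are made in large amounts by fibroblasts and other mesenchymal cells. The genes described here are the 7 with the symbols DCN, LUM, BGN, FMOD, OGN, PRELP and ASPN, chosen by name, out of 25283 genes in the table. The choice was made with earlier results of these data known. All 7 were measured, and all 7 passed the filter on low counts that left 17317 genes for testing.

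The libraries came from cells labelled as neurons and grown from the established human embryonic stem cell line H1 by way of neural progenitors that were then matured. The U1_OE group (2 libraries) carried a lentiviral vector for overexpression of U1 snRNA, the RNA component of the splicing particle that pairs with 5′ splice sites. The control group (2 libraries) carried an empty vector. Vectors had been given for 36 hours. All cells of both groups thus share the H1 genome, the differentiation and a lentiviral vector, and the labels name 1 line and no separate cultures, so p-values reflect no more than the spread among these 4 libraries, which may be technical. The control samples' treatment text also names the overexpression vector; genotype labels and titles set the groups here. The level of U1 snRNA was not analysed here.

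The deposited estimated counts summed to between 16713505 and 19057423 per library. Each of the 20 mesenchymal and fibroblast markers exceeded 10 CPM (the count scaled to one library size for all) in every library. Their summed level was 118040.0 and 112652 CPM in the U1_OE libraries, against 101308 and 114124 CPM in the control libraries. Of 13 measured pan-neuronal markers, 7 exceeded 1 CPM and 1, TUBB3, exceeded 10 CPM in every library, while DCX, STMN2, RBFOX3 and NEFM stayed under 1 CPM in all 4. The neuronal sum was 337 and 376 CPM in the U1_OE libraries, against 197 and 127 CPM in the control libraries. TUBB3, a tubulin, had 264 and 338 CPM in the U1_OE libraries, against 159 and 104 CPM in the control libraries. GAP43, known from growing axons, stood at 46.9 and 11.5 CPM in the U1_OE libraries, against 3.30 and 1.27 CPM in the control libraries. DESeq2 called both higher (adjusted p = 0.00134 and 4.63e-05) and edgeR neither; TUBB3 was lost without control replicate 2 (0.363) and GAP43 without U1_OE replicate 1 (0.272). TUBB3 made up most of the neuronal sum in every library, and the label "neuron" thus has little backing from the other markers. U1_OE replicate 1 stood apart most often: 2.13% of tested genes were over 2 times as high there as in each other library, against 0.976% to 0.993% for each of the other 3 libraries. In bulk RNA, a larger share of cells that make a transcript and more transcript per cell cannot be told apart.

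All 7 proteoglycan genes were highest in U1_OE replicate 1, while U1_OE replicate 2 lay between or below the control libraries in all but PRELP. No member was called changed by U1 overexpression. The summed level of the 7 genes was 4983 and 1587 CPM in the U1_OE libraries, against 1783 and 2888 CPM in the control libraries, so the U1_OE libraries lay outside the control libraries on both sides. DCN, LUM and BGN together made up 92.3% and 96.8% of that sum in the U1_OE libraries and 97.5% and 95.3% in the control libraries.

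The upstream sequences of the members are shown here as a description, and a link between them and the levels was not tested. RefSeq windows (GRCh38.p14) were found for 5 of the 7 genes. The table held none for DCN and LUM, and 2 for OGN. The 4 windows below cover the 250 bases before the RefSeq start of the gene, written 5′ to 3′ on the strand of the gene. RefSeq starts can differ from those of GENCODE v29, the annotation used further below. The FMOD window lies within the GENCODE span of FMOD. The BGN window and an OGN window run past the GENCODE start. Capitals mark matches, on either strand, to TATAA (the core of the TATA box), to CCAAT (the box of that name), to GGGCGG (the GC box) and to TGANTCA (the AP-1 motif). Matches did not overlap each other in these windows.
BGN (chrX:153494730-153494979, plus strand): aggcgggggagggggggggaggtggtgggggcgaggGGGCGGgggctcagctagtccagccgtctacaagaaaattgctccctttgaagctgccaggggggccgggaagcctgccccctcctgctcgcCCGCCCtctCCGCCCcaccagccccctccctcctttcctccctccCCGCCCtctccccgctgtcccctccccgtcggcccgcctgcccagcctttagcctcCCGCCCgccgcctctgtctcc
FMOD (chr1:203351123-203351372, minus strand): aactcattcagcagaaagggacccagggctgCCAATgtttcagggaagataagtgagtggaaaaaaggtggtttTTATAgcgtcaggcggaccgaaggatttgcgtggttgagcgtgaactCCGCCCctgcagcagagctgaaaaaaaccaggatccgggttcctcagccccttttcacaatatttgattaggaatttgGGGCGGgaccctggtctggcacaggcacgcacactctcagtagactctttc
PRELP (chr1:203475556-203475805, plus strand): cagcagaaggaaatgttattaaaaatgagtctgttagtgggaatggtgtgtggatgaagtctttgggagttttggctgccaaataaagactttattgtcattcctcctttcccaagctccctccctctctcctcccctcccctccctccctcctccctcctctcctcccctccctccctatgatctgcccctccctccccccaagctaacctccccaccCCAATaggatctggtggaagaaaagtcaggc
ASPN (chr9:92482507-92482756, minus strand): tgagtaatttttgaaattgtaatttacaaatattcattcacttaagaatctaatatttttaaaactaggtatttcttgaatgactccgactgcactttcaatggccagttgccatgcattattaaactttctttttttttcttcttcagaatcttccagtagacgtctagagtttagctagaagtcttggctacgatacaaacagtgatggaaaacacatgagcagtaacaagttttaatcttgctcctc

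BGN held 5 GC box matches in a window of 74.0% G and C, FMOD held 2 in 51.6%, and PRELP, ASPN and OGN held 0. ASPN had 32.4% G and C and none of the 4 motifs, and the OGN windows had 36.0% and 31.2%, against a median of 58.0% over 35116 windows. The TATAA match of FMOD began 176 bases before the RefSeq start, within the GENCODE span of FMOD. Both overlapping OGN windows also held a TATAA match, 199 and 78 bases before their RefSeq starts. The CCAAT matches of FMOD and PRELP began 219 and 31 bases before the RefSeq starts of these genes. Over all windows of this length, 42.6% held GGGCGG, 18.9% TATAA, 32.0% CCAAT and 6.57% TGANTCA, and no member window held TGANTCA.

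The members differed widely in level within each library. Levels per kilobase are in CPM per kilobase of the shortest principal transcript in GENCODE v29. LUM, or lumican, a keratan sulfate proteoglycan that spaces collagen fibrils, had 628 and 246 CPM per kilobase in the U1_OE libraries, against 319 and 476 in the control libraries. BGN, or biglycan, which carries chondroitin or dermatan sulfate and is also released as a signal to innate immune receptors, had 654 and 234 CPM per kilobase in the U1_OE libraries, against 197 and 257 in the control libraries. DCN, or decorin, the closest relative of biglycan and a binder of TGF-beta, had 589 and 121 CPM per kilobase in the U1_OE libraries, against 159 and 365 in the control libraries. The ranges over the libraries overlapped, but LUM was above DCN in each of the 4 libraries, and above BGN in each library but U1_OE replicate 1.

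The place of DCN depends on the transcript length used. DCN has 3 principal transcripts, and over the 12847 bases of all its annotated exons its level was 88.5 and 18.2 CPM per kilobase in the U1_OE libraries, against 23.9 and 54.8 in the control libraries. On that scale it stood below LUM and BGN in every library. On the scale of the shortest principal transcript it did so too, except in control replicate 2, where it stood above BGN.

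The remaining 4 members were lower. OGN, or osteoglycin, a small core protein of bone and connective tissue, had 60.9 and 11.0 CPM per kilobase in the U1_OE libraries, against 9.79 and 30.9 in the control libraries. ASPN, or asporin, a collagen-binding relative of decorin with a run of aspartate residues, had 61.7 and 6.75 CPM per kilobase in the U1_OE libraries, against 6.70 and 19.2 in the control libraries. ASPN was above OGN in U1_OE replicate 1 and below it in the other 3 libraries.
FMOD, or fibromodulin, which binds collagen and directs its cross-linking, had 18.8 and 0.919 CPM per kilobase in the U1_OE libraries, against 0.338 and 1.02 in the control libraries. PRELP, a relative of fibromodulin that bridges basement membranes and collagen, had 0.686 and 0.155 CPM per kilobase in the U1_OE libraries, against 0.0205 and 0.0481 in the control libraries, and was lowest of the 7 in every library. In each library LUM, BGN and DCN stood above OGN and ASPN, which stood above FMOD and then PRELP. The order among LUM, BGN and DCN, and that between OGN and ASPN, varied over the libraries.

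**Figure D1:**
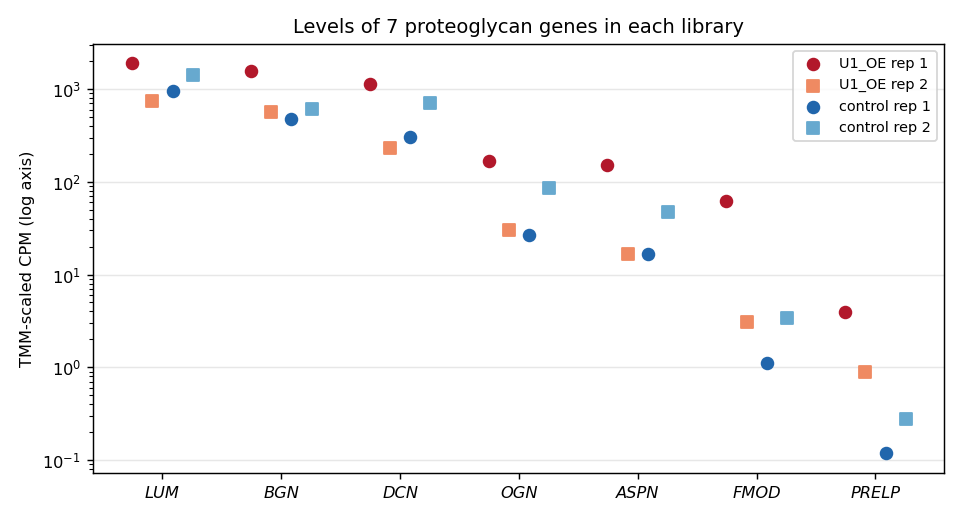
Level of each of the 7 genes (TMM-scaled CPM, log axis) in the 2 U1_OE and the 2 control libraries, 1 point per library. U1_OE replicate 1 is the highest point for every gene, and U1_OE replicate 2 lies above both control libraries for PRELP alone.

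The comparison of U1_OE with control asked whether the overexpression changed these genes. With edgeR's quasi-likelihood fit and adjustment by Benjamini and Hochberg over 17317 genes, 0 of 7 members were called, against 0 of all tested genes (0%). Without adjustment, 2 of 7 had p under 0.05, FMOD and PRELP, both higher in U1_OE, against 1572 of all tested genes (9.08%), of which the higher ones made up 4.36% of all tested. That count was 0 with limma-voom, 1 with the replicate number as a block, and 0 without U1_OE replicate 1 or without control replicate 1; it was 4 without U1_OE replicate 2 and 1 without control replicate 2. DESeq2 called 0 of 7 members and 1.08% of 17440 genes, 0.614% higher and 0.47% lower in U1_OE. All 7 members had a positive log2 fold change, against 49.3% of tested genes, with a median of 0.97 against -0.01 over all tested genes. Without U1_OE replicate 1, 3 of the 7 were positive and 4 negative.

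DCN had 1137 and 233 CPM in the U1_OE libraries, against 308 and 704 CPM in the control libraries. U1_OE replicate 2 was the lowest library and U1_OE replicate 1 the highest, so the U1_OE range enclosed the control range. Its log2 fold change was 0.44 ± 0.80 (SE, n = 2 each; edgeR adjusted p = 0.905). The value turned to -1.10 with U1_OE replicate 1 left out, and to -0.016 with control replicate 1 left out.

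LUM, which ranked among the 200 highest genes of each library, had 1888 and 741 CPM in the U1_OE libraries, against 959 and 1431 CPM in the control libraries. Here too the U1_OE range enclosed the control range. The log2 fold change was 0.14 ± 0.48 (SE, n = 2 each; edgeR adjusted p = 0.957), and it was -0.68 without U1_OE replicate 1 and -0.10 without control replicate 1. LUM varied least of the 7 over the libraries, with a highest level 2.55 times the lowest.

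BGN had 1571.5 and 562 CPM in the U1_OE libraries, against 472 and 617 CPM in the control libraries. U1_OE replicate 2 lay between the control libraries. The log2 fold change was 0.97 ± 0.50 (SE, n = 2 each; edgeR adjusted p = 0.638), was 0.059 without U1_OE replicate 1 and 1.53 without U1_OE replicate 2. BGN was the top member per kilobase in U1_OE replicate 1, with LUM on top in the other 3 libraries.

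OGN had 167 and 30.0 CPM in the U1_OE libraries, against 26.8 and 84.8 CPM in the control libraries. ASPN had 152 and 16.7 CPM in the U1_OE libraries, against 16.5 and 47.3 CPM in the control libraries. For both genes U1_OE replicate 2 lay just above control replicate 1 and below control replicate 2. The log2 fold changes were 0.82 ± 0.92 for OGN and 1.40 ± 1.07 for ASPN (SE, n = 2 each; edgeR adjusted p = 0.828 and 0.741). Both turned negative, -0.88 and -0.92, with U1_OE replicate 1 left out.

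FMOD differed most between libraries. Its level was 62.3 and 3.04 CPM in the U1_OE libraries, against 1.12 and 3.37 CPM in the control libraries. U1_OE replicate 1 alone was high, 20.5 times U1_OE replicate 2 and 18.5 times control replicate 2, and U1_OE replicate 2 lay between the control libraries. These rest on 1012, 58.3, 19.3 and 60.6 estimated counts in U1_OE replicates 1 and 2 and control replicates 1 and 2. The log2 fold change was 3.85 ± 1.48 (SE, n = 2 each; edgeR adjusted p = 0.547) and 0.45 without U1_OE replicate 1.

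PRELP had 3.94 and 0.891 CPM in the U1_OE libraries, against 0.118 and 0.276 CPM in the control libraries. It was the single member with both U1_OE libraries above both control libraries, a pattern of 19.7% of all tested genes. The control values rest on 2.4 and 5.2 estimated counts. Over the groups, 81 counts in U1_OE against 7 in control gave a ratio of 11.5 with an exact 95% interval of 5.33 to 29.5, which covers counting error only. The log2 fold change was 3.56 ± 1.02 (SE, n = 2 each; edgeR adjusted p = 0.481) and 2.15 ± 1.34 without U1_OE replicate 1 (edgeR adjusted p = 0.678). U1_OE replicate 2 against control replicate 2 was 17 against 5 counts, a ratio of 3.22 with an exact 95% interval of 1.14 to 11.2.

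**Figure D2:**
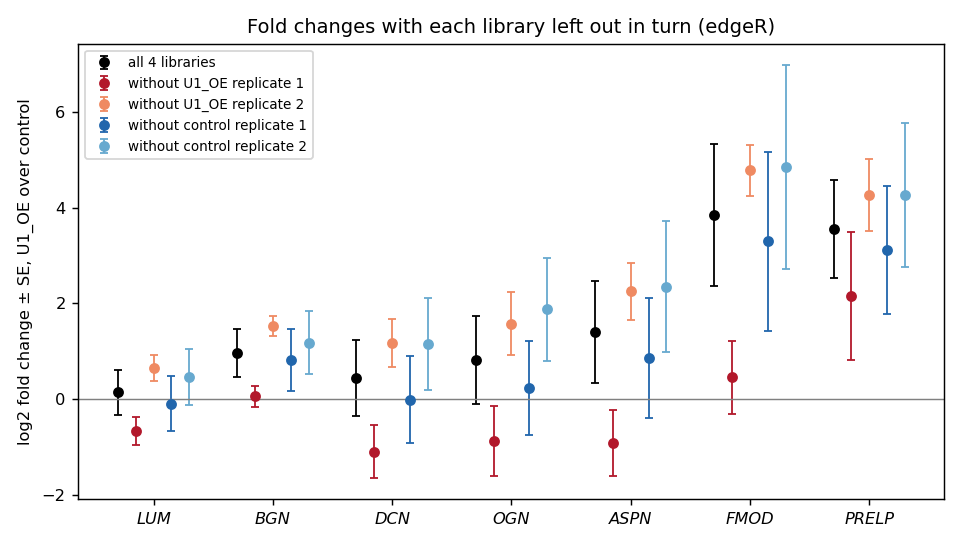
Log2 fold change of each gene, U1_OE over control, with its standard error, from all 4 libraries and with each library left out in turn (edgeR quasi-likelihood fit). Without U1_OE replicate 1 the values of LUM, DCN, OGN and ASPN lie below 0 and that of BGN is 0.059.

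With U1_OE replicate 2 left out, the log2 fold changes of all 7 genes were positive, from 0.66 for LUM to 4.78 for FMOD, and edgeR called none. DESeq2 without that library called BGN (1.53 ± 0.22, adjusted p = 1.58e-09) and FMOD (4.79 ± 0.55, adjusted p = 5.74e-15). That fit compares U1_OE replicate 1 alone with the control libraries and assumes that it varies as they do. DESeq2 called neither gene with any other library left out or with all 4.

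The order of the libraries was shared by most members, so the counts below are descriptions and not 7 separate observations. U1_OE replicate 1 was the highest library for 7 of 7 members, against 28.7% of tested genes, and was over 2 times each other library for 4 of 7, which were BGN, FMOD, ASPN and PRELP, against 2.13% of tested genes. Control replicate 2 was second for 6 of 7, PRELP being the exception. U1_OE replicate 1 highest with control replicate 2 second was the order of 10.6% of tested genes. Control replicate 2 was above control replicate 1 for every member, from 1.31 times for BGN to 3.16 times for OGN.

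The members spread unequally. The highest over the lowest library was 2.55 for LUM, 3.33 for BGN, 4.88 for DCN, 6.22 for OGN, 9.21 for ASPN and 55.7 for FMOD. Among tested genes averaging 50 counts or more, a ratio as large was found in 9.64%, 5.4%, 2.72%, 1.81%, 1.06% and 0.302%, in the same order of genes. For PRELP, which averaged fewer than 50 counts, the ratio was 33.5, with 2.4 estimated counts in control replicate 1. A ratio as large as that of PRELP was found in 4.37% of all tested genes. The members with lower levels thus spread more than LUM and BGN, and the ratio of FMOD to LUM, per kilobase of exon, was 0.0292 and 0.00363 in the U1_OE libraries, against 0.00103 and 0.00208 in the control libraries. Within the pair of closest relatives, BGN to DCN per kilobase of exon was 7.24 and 12.6 in the U1_OE libraries, against 8.04 and 4.59 in the control libraries. Those ratios divide DCN by all 12847 bases of its annotated exons. Per kilobase of the shortest principal transcript, BGN had 654 and 234 CPM in the U1_OE libraries, and DCN had 589 and 121. In the control libraries BGN had 197 and 257 on that scale, against 159 and 365 for DCN. The size of the ratio thus depends on the length used, and its direction does so in control replicate 2.

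Most members lie next to each other in the genome (GENCODE v29, GRCh38). On chromosome 12, minus strand, LUM (91102629 to 91111831) lies 28653 bases from DCN (91140484 to 91183123), and KERA and EPYC, which encode the cornea and cartilage members keratocan and epiphycan, follow on the side of LUM. KERA had 0.924 and 0.105 CPM in the U1_OE libraries, against 0.118 and 0.442 CPM in the control libraries. EPYC had 0.739 and 0.157 CPM in the U1_OE libraries, against 0.177 and 0.166 CPM in the control libraries. Both rest on at most 15.5 counts in a library and were too low to be tested, and both were highest in U1_OE replicate 1.

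On chromosome 9, minus strand, the order is OGN (92383967 to 92404696), OMD, ASPN (92456205 to 92482506) and ECM2. OMD, or osteomodulin, had 1.48 and 0.681 CPM in the U1_OE libraries, against 0.589 and 1.33 CPM in the control libraries, in the library order of OGN and ASPN. These OMD values rest on 23.7 and 12.5 estimated counts in U1_OE and 9.9 and 23.7 in control, so their order is uncertain. ECM2, a larger leucine-rich matrix protein, did not follow OGN and ASPN: it had 7.70 and 8.70 CPM in the U1_OE libraries, against 8.30 and 19.5 CPM in the control libraries. OGN and ASPN lie within the span of CENPP, a kinetochore gene on the plus strand with 3.70 and 1.42 CPM in the U1_OE libraries, against 2.71 and 3.32 CPM in the control libraries. The labels state no step that marks the strand, so reads of CENPP and of OGN or ASPN could not be told apart where their exons overlap.

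On chromosome 1, FMOD (203340628 to 203351758, minus strand) and PRELP (203475828 to 203491352, plus strand) lie 124070 bases apart and point away from each other. BTG2, an antiproliferative gene on the other side of FMOD, had 14.3 and 8.07 CPM in the U1_OE libraries, against 10.0 and 12.2 CPM in the control libraries. ATP2B4, a calcium pump beyond PRELP, had 32.3 and 22.3 CPM in the U1_OE libraries, against 19.2 and 18.6 CPM in the control libraries. BGN (chromosome X, 153494939 to 153509554, plus strand) overlaps HAUS7, an augmin subunit on the minus strand, which had 24.6 and 17.1 CPM in the U1_OE libraries, against 18.1 and 24.0 CPM in the control libraries. No run of 31 bases was shared between the transcripts of any 2 members, while 7.15% of those of PRELP, 1.7% of those of BGN and 1.01% of those of DCN also occurred in transcripts of other genes.

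**Figure D3:**
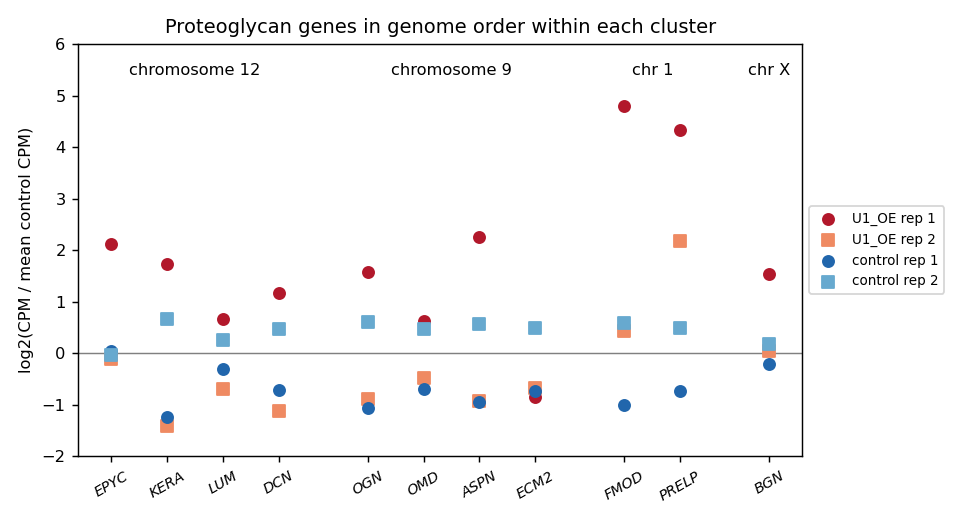
Log2 ratio of the CPM in each library to the mean CPM of the control libraries, for members and their family neighbours in genome order within each cluster. U1_OE replicate 1 is the highest point for every gene but ECM2, whose value there is -0.85. EPYC and KERA rest on 1.7 to 15.5 counts per library, and OMD rests on 9.9 to 23.7.

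Few genes of the wider family and of the machinery that builds the proteoglycans were called. Of 11 other genes of the family, 9 were measured and 7 tested, 0 were called by edgeR or DESeq2, and the median log2 fold change was -0.08. The smallest p values were those of PODNL1, podocan-like 1, with 35.1 and 54.5 CPM in the U1_OE libraries, against 59.5 and 90.8 CPM in the control libraries (edgeR adjusted p = 0.563), and of CHADL (adjusted p = 0.662). U1_OE replicate 1 was the lowest library for both, the reverse of its place for the members. TSKU, tsukushi, had 51.5 and 39.0 CPM in the U1_OE libraries, against 40.4 and 50.5 CPM in the control libraries.

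Of 23 genes that build chondroitin and dermatan sulfate chains, 22 were tested and 0 were called by edgeR or DESeq2, with 15 positive and 7 negative log2 fold changes and a median of 0.13. XYLT1, a xylosyltransferase that starts the chain, had 1.85 and 3.62 CPM in the U1_OE libraries, against 0.824 and 1.05 CPM in the control libraries (edgeR adjusted p = 0.524). PXYLP1, the phosphatase that acts on the chain's linker xylose, had 6.10 and 5.82 CPM in the U1_OE libraries, against 10.2 and 7.30 CPM in the control libraries (edgeR adjusted p = 0.596). For both genes the groups did not overlap, as in 19.7% of tested genes with U1_OE above and 22% with U1_OE below.

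Of 16 genes of keratan sulfate and tyrosine sulfation, which modify LUM and FMOD, 14 were tested, edgeR called 0 and DESeq2 called 1, B4GALT1, a galactosyltransferase. B4GALT1 had 226 and 174 CPM in the U1_OE libraries, against 341 and 400 CPM in the control libraries, with a DESeq2 log2 fold change of -0.88 ± 0.20 (adjusted p = 0.00330). The call was kept without U1_OE replicate 1 and lost without U1_OE replicate 2 (0.0516), control replicate 1 (0.213) or control replicate 2 (0.895). PAPSS2, which makes the sulfate donor, had 101 and 105 CPM in the U1_OE libraries, against 71.9 and 73.5 CPM in the control libraries, and was not called (edgeR adjusted p = 0.459).

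Of 12 tested proteases that process or cleave the core proteins and procollagens, edgeR called 0 and DESeq2 called 1, HTRA1, a secreted serine protease that cleaves BGN and other matrix proteins. HTRA1 had 1394 and 840.5 CPM in the U1_OE libraries, against 654 and 548 CPM in the control libraries (DESeq2 log2 fold change 0.91 ± 0.26, adjusted p = 0.0434). It was called without U1_OE replicate 2 and not without U1_OE replicate 1 (0.463), control replicate 1 (0.262) or control replicate 2 (1.00). MMP2, a gelatinase, had 1204 and 1033 CPM in the U1_OE libraries, against 1383 and 1449 CPM in the control libraries (edgeR adjusted p = 0.570).

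Of 12 tested collagen genes, edgeR called 0 and DESeq2 called 1, COL6A1, a chain of the type VI collagen that BGN and DCN bind. COL6A1 had 3430.0 and 3140 CPM in the U1_OE libraries, against 2226 and 2392 CPM in the control libraries (DESeq2 log2 fold change 0.52 ± 0.15, adjusted p = 0.0381). The COL6A1 call was lost whichever library was left out, with DESeq2 log2 fold changes of 0.47 to 0.57. COL6A2, its partner chain, had 2991 and 2462.5 CPM in the U1_OE libraries, against 1676 and 1948 CPM in the control libraries (DESeq2 adjusted p = 0.0553). Among 16 tested receptors and ligands of the proteoglycans, 0 were called by either tool. TGFB3, a ligand that decorin and its relatives bind, had 64.0 and 29.7 CPM in the U1_OE libraries, against 19.2 and 22.3 CPM in the control libraries (edgeR adjusted p = 0.508), and CCN4, a matricellular protein reported to bind decorin and biglycan, had an edgeR adjusted p of 0.512.

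Of 17 tested genes of other matrix proteoglycans, edgeR called 0 and DESeq2 called 1, CD44, a hyaluronan receptor that can carry chondroitin sulfate. CD44 had 188 and 275 CPM in the U1_OE libraries, against 83.5 and 87.1 CPM in the control libraries (DESeq2 log2 fold change 1.46 ± 0.24, adjusted p = 1.23e-06), and stayed called by DESeq2 without each library in turn. Unlike the 7 members it was higher in U1_OE replicate 2 than in U1_OE replicate 1. SDC3, a syndecan, had 8.87 and 7.44 CPM in the U1_OE libraries, against 15.2 and 12.9 CPM in the control libraries (edgeR adjusted p = 0.459).

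The marker lists moved less than the members or in another library order. The summed level of the 7 members was 2.13 and 0.679 times the control mean in the U1_OE libraries, against 0.763 and 1.24 times in the control libraries. The mesenchymal sum was 1.10 and 1.05 times its control mean in the U1_OE libraries, against 0.941 and 1.06 times in the control libraries. The collagen sum was 1.21 and 1.05 times its control mean in the U1_OE libraries, against 0.861 and 1.14 times in the control libraries. Of the mesenchymal markers, which include 7 of the collagen genes, DESeq2 called COL6A1, POSTN and LOX higher and edgeR none. POSTN was lost without U1_OE replicate 1 (adjusted p = 1.00), U1_OE replicate 2 (0.868) or control replicate 1 (0.454), and LOX without control replicate 1 (0.0729). For 10 measured pericyte and smooth muscle markers the sum was 589 and 655 CPM in the U1_OE libraries, against 334 and 234 CPM in the control libraries. TAGLN alone had 197 and 401 CPM in the U1_OE libraries, against 113 and 40.4 CPM in the control libraries. RGS5 had 15.9 and 46.4 CPM in the U1_OE libraries, against 49.0 and 28.0 CPM in the control libraries. MYH11 and ABCC9 were under 1 CPM in every library. Of the 8 tested markers, 7 had a positive log2 fold change and 1, RGS5, a negative one. Of these, NOTCH3, a receptor of mural cells, had 116 and 65.1 CPM in the U1_OE libraries, against 30.0 and 29.8 CPM in the control libraries, and DESeq2 called it higher (adjusted p = 0.000124), also with each library left out in turn, while edgeR did not (0.459). For 9 measured tendon and cartilage markers it was 83.0 and 49.5 CPM in the U1_OE libraries, against 36.3 and 41.9 CPM, with TNMD under 1 CPM in every library and SOX9 called higher by DESeq2 (adjusted p = 0.0223) but in no fit with a library left out. For 6 measured bone markers the sum was 81.6 and 251 CPM in the U1_OE libraries, against 403 and 437 CPM in the control libraries. SPP1 made up most of it in every library, with 64.4 and 229 CPM in U1_OE, against 377 and 403 CPM in control. BGLAP and IBSP were under 1 CPM in every library. The part of such cells in the members' levels was not tested.

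**Figure D4:**
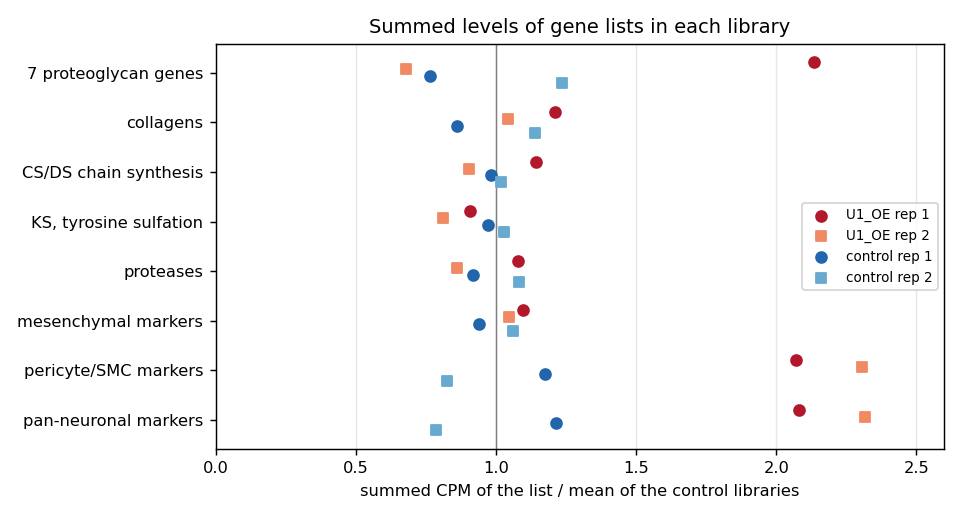
Summed CPM of each gene list in each library, divided by the mean of the control libraries. The 7 proteoglycan genes are at 2.13 in U1_OE replicate 1 and 0.679 in U1_OE replicate 2, while the mesenchymal markers lie between 0.941 and 1.10 in all libraries.

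Genes with profiles like those of the members were found by the root mean square distance between centred log2 CPM profiles over the 4 libraries, among 12261 other genes averaging 50 counts or more. With 4 libraries genes can come close, many of them for LUM and BGN, and these are descriptions. Within 0.2 log2 units lay 6 genes for DCN, 3 for OGN and 2 for ASPN. AMOT, or angiomotin, lay 0.035 log2 units from DCN, and ISLR, a secreted protein with leucine-rich repeats known from fibroblasts, lay 0.12 from it. SHF and CACNA1C lay 0.032 and 0.058 from LUM, with 94 genes within 0.2. NPFF lay 0.056 from BGN, with 30 genes within 0.2, and NDRG2 lay 0.11 from OGN. TMSB15B and RAMP2 lay 0.15 and 0.19 from ASPN. FMOD had no gene within 0.2: the nearest was ECRG4, at 0.66, with 15.7 and 0.786 CPM in the U1_OE libraries, against 0.824 and 0.829 CPM in the control libraries. Next came RASL11B, at 0.76.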

How the data were processed

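The authors deposited one table of estimated counts per gene, not normalised. The submitters' processing notes list hg38, Trim Galore, STAR, DESeq2 and featureCounts, with no versions or roles. Most deposited values are not whole, for a reason not given in the sources used here. After rounding, R 4.3.3 and edgeR 4.0.16 were used: filterByExpr (minimum count 10), TMM scaling, the quasi-likelihood test and Benjamini-Hochberg adjustment over 17317 genes, threshold 0.05. DESeq2 1.42.0 and limma 3.58.1 (voom) were alternatives, beside other scalings, filters, a replicate block and each library left out. Standard errors of edgeR were worked back from the F statistic. CPM are TMM-scaled. Gene models come from GENCODE v29, which matched 82.4% of rows. The procedures were run on simulated data, for which no rate of missed or false calls is given here. With totals of 16713505 to 19057423 counts, precision for all members was limited by the spread over 2 libraries a group, and for PRELP by low counts as well. With 2 libraries a group, an exact permutation test of 1 gene cannot go below 0.333. The members and lists were chosen with earlier results of these data known. Named besides the members are the 2 genes per list with the smallest unadjusted p, DESeq2 calls of the lists, genomic neighbours, and the 2 nearest profiles per member among genes averaging 50 counts or more. Some genes this rule picks are not reported here. The libraries of a group differed far beyond sampling noise (chi-square per degree of freedom 57.8 in U1_OE and 31.6 in control).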

Additional observations from a re-analysis of the deposited data

How the results depend on the processing

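By edgeR 0 genes were called under every planned setting and with the crossed pairing, and no member was called. DESeq2 called 189 genes, and 147, 322, 55 and 62 without U1_OE replicate 1, U1_OE replicate 2, control replicate 1 and control replicate 2, fits added after seeing the data. limma-voom called 0. Scaling, filters and tools kept all 7 members positive. PRELP had no value with a mean of at least 50 counts. Scaling moved the median of all genes of log2 fold changes from -0.0055 to 0.0056 (RLE) or -0.041 (library size).

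Leaving out each library in turn gave log2 fold changes of -1.10 to 1.17 for DCN, -0.68 to 0.66 for LUM, 0.059 to 1.53 for BGN, 0.45 to 4.85 for FMOD, -0.88 to 1.87 for OGN, 2.15 to 4.27 for PRELP and -0.92 to 2.35 for ASPN. The negative values were those without U1_OE replicate 1 (DCN, LUM, OGN and ASPN) and without control replicate 1 (DCN -0.016 and LUM -0.10). By DESeq2 they were -1.09 for DCN, -0.66 for LUM, -0.86 for OGN and -0.91 for ASPN without U1_OE replicate 1, and -0.028 for DCN and -0.11 for LUM without control replicate 1. DESeq2 without U1_OE replicate 2 called BGN (1.53) and FMOD (4.79). The log2 ratio of summed levels, 0.49, was -0.54 to 1.09 with a library left out and 0.54 per kilobase of exon. The cause was not tested.

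Same-numbered libraries of the groups did not deviate together (correlation -0.173 over 12267 genes). With the replicate number as a block, edgeR called 0 genes and the log2 fold changes were 0.15 for DCN, 0.014 for LUM, 0.80 for BGN, 2.75 for FMOD, 0.57 for OGN, 3.23 for PRELP and 0.85 for ASPN. With the numbers crossed, 0 genes were called. Counting error was large for KERA, EPYC, OMD and the control values of PRELP. The spread between libraries limited all 7 members, PRELP included.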
